A study of Arabidopsis thaliana with 42 samples.

Results

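The genes described here are 10 regulators of light signalling and greening in leaves of Arabidopsis thaliana: the photoreceptor genes PHYA (AT1G09570) and PHYB (AT2G18790), the phytochrome-interacting factor genes PIF1 (AT2G20180), PIF3 (AT1G09530), PIF4 (AT2G43010) and PIF5 (AT3G59060), the chloroplast development factor genes GLK1 (AT2G20570) and GLK2 (AT5G44190), and the bZIP factor genes HY5 (AT5G11260) and ABI5 (AT2G36270). They were chosen by gene identifier from the 33604 genes of the total RNA tables, with the FPKM of their transcript models summed. The 10 genes have 19 of the 41673 models. Of the 10, 9 reached 1 FPKM in at least 2 libraries and were tested among 18239 genes; ABI5 did not and is described separately.

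Leaves of wild-type plants were collected every 2 days from day 4 to day 30 after leaf emergence, and their total RNA was sequenced in 2 sets, which gave 28 libraries. All groups share this genotype and carry no treatment in the labels, which tell the groups apart by leaf age alone. Days 4, 6 and 8 are called young, days 14, 16 and 18 mature and days 26, 28 and 30 old, each with 6 libraries. The submitters describe the sets as independent biological replicates without stating which step was done apart. The p-values of the fit (limma) cover the spread left among these libraries after terms for age and set, technical differences included. A shift of a whole set is taken up by the set term and is not covered. Exact permutation p-values come from exchanging libraries, also those of different ages, within a set.

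Phytochromes are red and far-red photoreceptors that move into the nucleus in light and trigger the degradation of PIFs, basic helix-loop-helix factors that promote growth in shade and darkness. HY5 acts in the opposite direction, promoting light responses, and is itself degraded through the COP1-SPA ubiquitin ligase in darkness. GLK1 and GLK2 activate nuclear genes of chlorophyll synthesis and light harvesting. PIF4, PIF5 and ABI5 are known as promoters of leaf senescence, the ordered dismantling of an ageing leaf.

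The libraries carried the leaf signature named in the labels. The summed level of 4 mesophyll markers (RBCS1A, RCA, CA1, LHCB3) was 6380 to 9660 FPKM in young, 5100 to 6870 FPKM in mature and 325 to 2820 FPKM in old libraries. The 4 stomatal and guard cell markers (TMM, FAMA, MYB60, EPF1) summed to 10.6 to 24.3, 4.61 to 7.57 and 4.31 to 7.91 FPKM in the same order. All 4 fell from young to mature leaves in limma, as did 16.7% of all genes tested. The 4 vascular markers (SUC2, IRX3, IRX5, APL) summed to 86.5 to 206, 189 to 248 and 110 to 154 FPKM. From mature to old leaves 3 of these fell and 1 rose, where 27.1% of all genes fell and 48.3% rose. The 4 meristem and flower markers summed to at most 1.17 FPKM in any library of these stages, with WUS listed at 0 throughout, and the 4 seed storage markers to at most 0.144 FPKM in young and 0.0199 FPKM in mature libraries, but to 9.54 FPKM in 1 old library, day 30 of set 2. The day 4 library of set 1 stood apart: its summed FPKM was 331479 against 439949 to 484348 in the other libraries, 13359 genes reached 1 FPKM in it against 14889 to 16128 elsewhere, and its correlation across genes with the other library of its day was 0.934, against 0.976 to 0.990 at the other ages. All 9 tested genes were lower in it than in the day 4 library of set 2, whose summed FPKM was 474194. How many of all genes were lower in it was not counted, so this is not read as a trait of the 9. Results on young leaves are given with and without the day 4 library of set 1 where it matters. FPKM does not give depth directly, but the smallest steps between low values show what 1 read adds. Relative to the day 6 library of set 1 that step was 1.10 (log2) in the day 4 library of set 1, 0.45 in that of set 2 and between -0.25 and 0.25 at the other ages, so both day 4 libraries had coarser low values.

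Transcript levels of most of these regulators climbed from young to mature leaves and dropped in the oldest leaves. All 9 tested genes were higher in mature than young leaves, where 51.6% of all genes tested were higher and 16.7% lower, 68.3% in all (limma, adjusted p under 0.05). After quantile normalization 6 of them were called higher, beside 6176 of all genes higher and 5479 lower. After median scaling 4 were called higher, beside 5123 of all genes higher and 6759 lower, and PIF4 and PIF5 turned negative. As deposited, 9406 of all genes were higher and 3049 lower. Between mature and old leaves 6 of the 9 fell (PHYA, PIF1, PIF4, PIF5, GLK1 and GLK2) while 27.1% of all genes fell, HY5 rose while 48.3% of all genes rose, and PHYB and PIF3 did not pass. In 7 of the 9 genes every mature library was above every young one, as in 32.5% of all genes, and in 4 (PIF1, PIF4, PIF5 and GLK2) every old library was below every mature one, as in 15.8%. An F test over the 14 ages passed for 9 of 9, as it did for 91% of all genes. The mean level was highest between day 16 and day 20 in 7 of the 9; that window, chosen after the profiles were seen, held the highest mean of 8.02% of all genes tested.

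**Figure D1:**
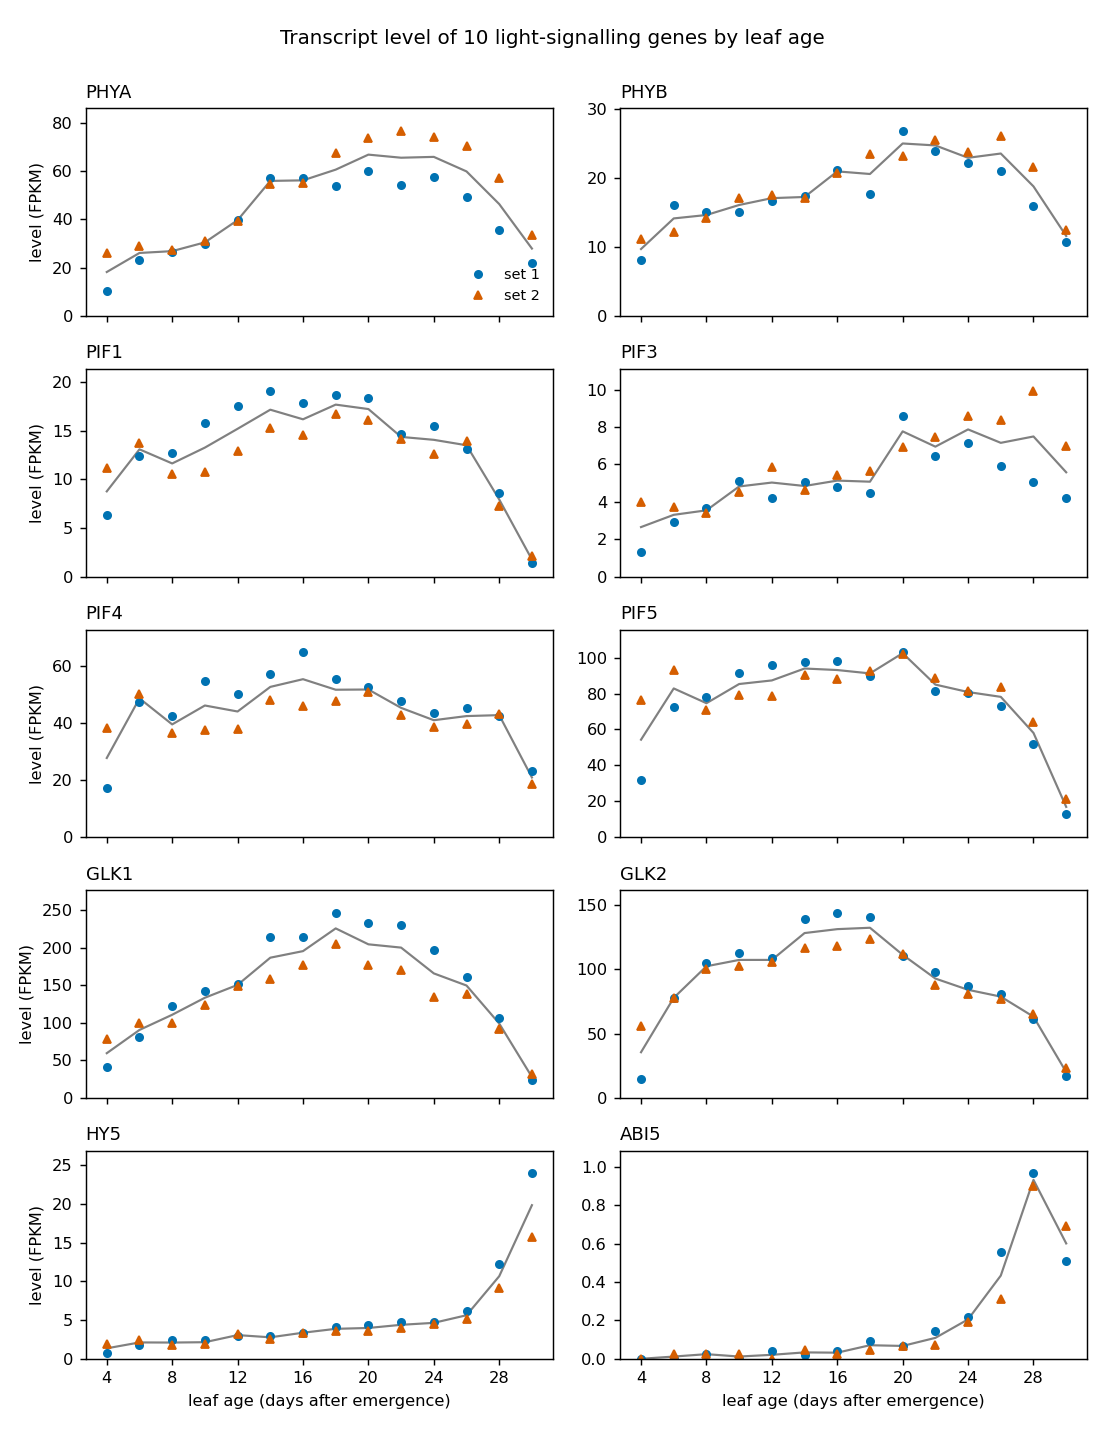
Level of each of the 10 genes (FPKM, vertical axis, starting at 0 and scaled per gene) against leaf age in days after emergence, with circles for set 1, triangles for set 2 and a line through the mean of both. PHYA, PHYB, PIF1, PIF4, PIF5, GLK1 and GLK2 have their highest mean between day 16 and day 20, PIF3 at day 24, ABI5 at day 28 and HY5 at day 30.

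Changes between stages are differences of mean log2(FPKM + 1) ± SE from limma, with p-values adjusted over all genes tested; this scale understates changes of genes near 1 FPKM. The median gene itself moved by 0.32 from young to mature leaves, by 0.26 from mature to old, by 0.59 from young to old and by -0.18 from day 28 to day 30, and a change called relative has that shift subtracted. The counts of every gene list below stand against the shares of all genes tested. These were 51.6% higher and 16.7% lower from young to mature leaves, and 48.3% higher and 27.1% lower from mature to old. Higher calls made up 75.5% of all calls between young and mature leaves as deposited, 53.0% after quantile normalization and 43.1% after median scaling. For old against mature leaves the same shares were 64.1%, 52.2% and 52.8%, for old against young 70.2%, 53.1% and 48.7%, and for day 30 against day 28 they were 29.2%, 50.8% and 56.1%.

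PHYA, the receptor for far-red light and for very dim light, was measured at 10.4 FPKM at the lowest, 26.2 at the median and 29.1 at the highest in the 6 young libraries. In mature libraries the lowest was 53.7, the median 56.1 and the highest 67.5 FPKM. No mature library overlapped the young ones. PHYA rose by 1.31 ± 0.14 on the log2 scale (relative 0.99, adjusted p = 2.89e-07). Old libraries spread from 22.1 through a median of 42.6 to 70.3 FPKM and overlapped both earlier stages. The fall from mature leaves was -0.45 ± 0.14 (relative -0.71, adjusted p = 0.00764), and without day 30 it was -0.15 and did not pass (adjusted p = 0.405).

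PHYB, the main red light receptor of green tissue, held a lower level per transcript length than PHYA in all 28 libraries, with a PHYA to PHYB ratio between 1.27 and 3.28. Its young libraries ranged from 8.17 through 13.2 to 16.1 FPKM and its mature libraries from 17.1 through 19.2 to 23.4 FPKM, with no overlap. The rise of 0.60 ± 0.105 (relative 0.28, adjusted p = 8.09e-05) was 0.16 after quantile normalization and 0.08 after median scaling, where it did not pass (adjusted p = 0.2 and 0.508). Old libraries lay between 10.7 and 26.0 FPKM around a median of 18.5, on both sides of the mature ones. The difference from mature leaves, -0.17 ± 0.105 (adjusted p = 0.149), did not pass, passed as -0.48 after quantile normalization and -0.41 after median scaling (adjusted p = 0.000449 and 0.00189), and turned to 0.10 without day 30.

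The mean of both sets was highest at day 20 for both phytochromes and lower again by day 30; in set 2 alone PHYA was highest at day 22 (76.8 FPKM) and PHYB at day 26 (26.0 FPKM). PHYA was at 59.8 and 73.8 FPKM at day 20 in sets 1 and 2 and at 22.1 and 33.7 FPKM at day 30. PHYB was at 26.8 and 23.1 FPKM at day 20 and at 10.7 and 12.4 FPKM at day 30. From day 18 the set 2 values of PHYA lay above those of set 1 at every age. Ranking the 14 ages by mean level, neighbours overlapped between sets in 12 of 13 pairs for each of the receptor genes, so only the broad rise and fall is larger than the spread between sets.

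The other phytochrome genes and the genes that serve them moved less uniformly. Of 10 tested genes of this list, 7 rose and 0 fell from young to mature leaves (median change 0.55, all genes 0.32), led by the heme oxygenase gene HO3 (2.43 ± 0.134) and by FHY3 (0.75 ± 0.0854), a transcription factor of far-red signalling. From mature to old leaves 4 rose, 1 fell and 5 did not pass (median 0.18, all genes 0.26). HY1, the main heme oxygenase of phytochrome chromophore synthesis, rose from 68.8 ± 3.28 to 212 ± 102.5 FPKM (SD, n = 6; 1.45 ± 0.0953), FHY3 rose again (0.71 ± 0.0854), and PHYE was the gene that fell, from 10.7 ± 0.887 to 5.34 ± 1.86 FPKM (-0.94 ± 0.117).

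The 8 blue and UV-B photoreceptor genes all rose from young to mature leaves (median 0.75, all genes 0.32), where 51.6% of all genes rose. CRY1 rose from 76.7 ± 23.2 to 187 ± 24.7 FPKM (SD, n = 6; 1.34 ± 0.102) and CRY2 by 1.199 ± 0.0971. In old leaves the larger falls were those of the phototropin genes. PHOT2 fell from 90.8 ± 6.28 to 34.6 ± 18.6 FPKM (-1.58 ± 0.18) and PHOT1 by -1.08 ± 0.107, whereas FKF1, a blue light receptor of flowering time, rose from 1.27 ± 0.828 to 7.14 ± 3.92 FPKM (1.76 ± 0.18) and CRY2 by 0.59 ± 0.0971. In all, 3 rose, 3 fell and 2 did not pass (median -0.05); the third fall was that of UVR8, the UV-B receptor (-0.33 ± 0.11), named after its value was seen.

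Among 11 genes of the COP1-SPA, DET1 and COP9 machinery, which restrains light responses, 10 rose and 0 fell from young to mature leaves. Their median change was 0.64 (all genes 0.32, 51.6% of them higher). SPA4 rose by 1.00 ± 0.11 and SPA1 by 0.93 ± 0.0909. From mature to old leaves 5 rose and 3 fell (median 0.26, the same as all genes), with SPA3 (-1.22 ± 0.146) and SPA4 (-0.46 ± 0.11) as the larger falls and COP10 (0.80 ± 0.128) and CSN5A (0.56 ± 0.128) as the larger rises. COP1 itself was at 7.45 ± 1.46, 10.53 ± 1.30 and 8.39 ± 1.71 FPKM in young, mature and old leaves.

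The 4 PIF genes split in ageing leaves. PIF1, known for holding back seed germination and chlorophyll synthesis in the dark, ranged from 6.38 through 11.8 to 13.7 FPKM in young and from 14.5 through 17.2 to 19.0 FPKM in mature libraries, without overlap. Its rise of 0.59 ± 0.131 (relative 0.27, adjusted p = 0.000631) did not pass after quantile normalization (0.15, adjusted p = 0.0912) or median scaling (0.09, adjusted p = 0.357). Old libraries, from 1.44 through 7.92 to 13.9 FPKM, were all below the mature ones. This fall of -1.34 ± 0.131 (relative -1.61, adjusted p = 3.73e-08) was -0.66 without day 30 and still passed (adjusted p = 0.000631).

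PIF3, the first PIF found to bind phytochrome, was the PIF that did not fall. Young libraries ranged from 1.34 through 3.55 to 3.97 FPKM, and mature libraries from 4.50 through 4.95 to 5.67 FPKM, all above the young ones. Old libraries lay at 4.204, 6.44 and 9.92 FPKM as lowest, median and highest, above every young library and overlapping the mature ones. PIF3 rose by 0.57 ± 0.15 from young to mature leaves (relative 0.25, adjusted p = 0.00266), a call lost after quantile normalization (0.24, adjusted p = 0.0644) and median scaling (0.16, adjusted p = 0.226). Against mature leaves the old ones differed by 0.32 ± 0.15 (relative 0.06, adjusted p = 0.0599). That difference passed in 8 of 39 alternatives, among them 0.43 without day 30 (adjusted p = 0.0300). The sets parted for this gene, with 5.08 FPKM in set 1 and 9.92 in set 2 at day 28.

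PIF4, which drives elongation in warmth and shade, varied less with age than PIF1 and PIF5, its highest day mean being 2.64 times its lowest against 10.0 and 6.04 times. Young libraries ranged from 17.1 through 40.5 to 49.97 FPKM and mature ones from 45.8 through 51.8 to 64.8 FPKM, so the stages overlapped. The rise of 0.51 ± 0.154 (relative 0.19, adjusted p = 0.00667) turned to -0.02 after median scaling and did not pass with narrower stages (0.27, adjusted p = 0.198). When set 1 lacked its day 4 library it was 0.29 (adjusted p = 0.00431). In old libraries PIF4 was at 18.7, 41.0 and 45.3 FPKM as lowest, median and highest, all below the mature ones, a fall of -0.64 ± 0.154 (relative -0.90, adjusted p = 0.00111). Without day 30 the fall was -0.31 and did not pass (adjusted p = 0.131): PIF4 stood at 45.3 and 39.5 FPKM at day 26, at 42.5 and 43.0 at day 28 and at 23.2 and 18.7 at day 30.

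PIF5, the closest relative of PIF4, had the highest FPKM of the 4 in mature leaves. It ranged from 32.2 through 74.5 to 93.1 FPKM in young and from 88.3 through 91.4 to 97.9 FPKM in mature libraries, with overlap. The rise of 0.46 ± 0.155 (relative 0.14, adjusted p = 0.0147) turned to -0.08 after median scaling and did not pass without day 4 (0.24, adjusted p = 0.0724). When only set 1 lacked day 4 it was 0.26 (adjusted p = 0.0442). Old libraries, from 12.8 through 58.1 to 83.4 FPKM, were all below the mature ones. PIF5 fell by -1.11 ± 0.155 (relative -1.38, adjusted p = 3.66e-06), and by -0.46 without day 30 (adjusted p = 0.0219).

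The deposited tables split several of these genes into transcript models, and the split was uncertain. For PIF5, model 2 held 57.2% ± 11.6 of the summed FPKM in young, 44.8% ± 14.0 in mature and 39.9% ± 8.18 in old libraries, and model 3 held 21.7% ± 11.8, 34.3% ± 13.7 and 43.5% ± 7.08 (SD, n = 6). The ranges of these shares overlapped between the stages, and they were not tested. PIF1 was carried by model 2 (median share 87.3% over 28 libraries), PIF4 by model 1 (91.1%) and PIF3 by model 1 (76.2%). In single libraries the shares of PIF1 model 2 ran from 33.9% to 100%, so the sums, not the models, are compared throughout. PHYB, GLK2, HY5 and ABI5 have 1 model each, and model 1 held at least 99.69% of PHYA and GLK1 in every library.

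Related helix-loop-helix genes and genes that PIFs are known to activate did not move as blocs. Of 7 tested relatives 2 rose and 3 fell from young to mature leaves (median 0.01, all genes 0.32), and 3 rose and 4 fell from mature to old (median -0.37). HFR1, which sequesters PIFs in shade, rose from 0.679 ± 0.504 to 14.2 ± 4.48 FPKM in mature leaves (SD, n = 6; 3.17 ± 0.211). PIF7, another PIF of shade responses, fell from 11.3 ± 1.89 to 2.05 ± 1.42 FPKM in old leaves (-2.13 ± 0.142) and PAR1 by -2.09 ± 0.238, whereas SPT rose by 1.62 ± 0.117 and PIL2 by 1.33 ± 0.13. PIL1 did not reach the level needed for testing.

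Of 9 known PIF and shade target genes 5 rose and 2 fell from young to mature leaves (median 0.58), and 3 rose, 4 fell and 2 did not pass from mature to old (median -0.09). The falls in old leaves were led by growth genes: PRE1 went from 6.61 ± 2.63 to 0.121 ± 0.144 FPKM (SD, n = 6; -2.69 ± 0.241) and the auxin response gene IAA29 from 5.03 ± 1.01 to 0.122 ± 0.142 FPKM (-2.42 ± 0.177). The rises were led by CKX5, which encodes a cytokinin-degrading oxidase, from 2.92 ± 0.641 to 56.1 ± 40.3 FPKM (3.42 ± 0.171), and by ST2A, a sulfotransferase of jasmonate metabolism, from 2.73 ± 1.23 to 37.5 ± 11.4 FPKM (3.37 ± 0.235). CKX5 and ST2A had already risen between young and mature leaves, by 1.39 ± 0.171 and 1.78 ± 0.235.

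GLK1 and GLK2 had the highest levels of the 10 genes in mature leaves. GLK1 ranged from 40.8 through 90.6 to 122 FPKM in young, from 159 through 209 to 246 FPKM in mature and from 24.3 through 99.1 to 160 FPKM in old libraries. Mature libraries were all above the young ones, and old and mature libraries touched at 1 end, day 26 of set 1 at 160 FPKM against day 14 of set 2 at 159. GLK1 rose by 1.27 ± 0.153 (relative 0.95, adjusted p = 1.16e-06) and then fell by -1.41 ± 0.153 (relative -1.68, adjusted p = 1.5e-07). Without day 30 the fall was -0.72 (adjusted p = 0.00107).

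GLK2, the partner of GLK1 with an overlapping role, ranged from 15.2 through 77.9 to 105 FPKM in young, from 117.0 through 132 to 144 FPKM in mature and from 17.0 through 63.3 to 80.6 FPKM in old libraries. The mature libraries stood clear above both other stages. It rose by 1.06 ± 0.196 (relative 0.74, adjusted p = 0.000124), of which 0.54 was left without day 4 (adjusted p = 2.92e-05). It then fell by -1.46 ± 0.196 (relative -1.73, adjusted p = 2.33e-06), or by -0.87 without day 30 (adjusted p = 0.00228). From day 4 to day 6 GLK2 rose from 15.2 and 56.1 to 78.2 and 77.7 FPKM in sets 1 and 2 (1.38 ± 0.34, adjusted p = 0.0304), and PIF4 was the other gene called at that step (0.89 ± 0.266, adjusted p = 0.0439), where 11.1% of all genes rose. Without the day 4 library of set 1 neither passed (adjusted p = 0.327 and 0.656). GLK2 also lost its call without either day 6 library (adjusted p = 0.0926 and 0.106). PIF4 kept its call in 5 of 38 alternatives, and was at 0.39 after quantile normalization and 0.37 after median scaling (adjusted p = 0.117 and 0.11).

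The known targets of the GLK factors did not follow them upwards. Of 11 tested target genes 0 rose, 6 fell and 5 did not pass from young to mature leaves (median -0.32, all genes 0.32), while GLK1 and GLK2 rose. PORB, which encodes protochlorophyllide reductase, fell from 392 ± 66.8 to 172 ± 32.6 FPKM (SD, n = 6; -1.19 ± 0.164) and HEMA1, of the first committed step towards chlorophyll, from 298 ± 56.6 to 158 ± 25.9 FPKM (-0.90 ± 0.135). From mature to old leaves all 11 fell (median -2.99), along with both factors. LHCB2.2, an antenna protein gene, went from 1215 ± 121 to 138 ± 163 FPKM (-4.27 ± 0.189), and CHLH, a magnesium chelatase subunit, from 455 ± 66.6 to 56.5 ± 49.4 FPKM (-3.47 ± 0.121). LHCB3 is also in the mesophyll list, whose 4 genes fell in the same comparison; in bulk leaf RNA, fewer mesophyll cells and less of these transcripts per cell cannot be told apart. The part of the mesophyll, stomatal or vascular fraction in the changes of the GLK and PIF genes was not tested.

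**Figure D2:**
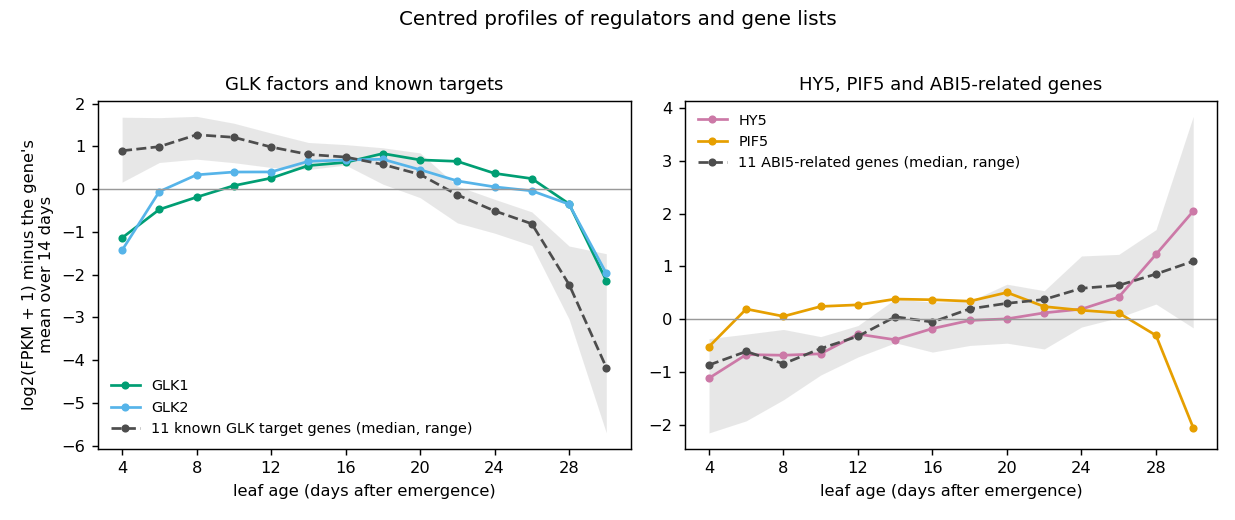
Mean log2(FPKM + 1) of both sets minus each gene's own mean over the 14 ages, against leaf age in days. Left: GLK1, GLK2 and 11 known GLK target genes (dashed median, grey range), whose median is highest at day 8 while the factors are highest at day 18, and which lie lowest at day 30. Right: HY5, PIF5 and 11 ABI5-related genes (dashed median, grey range), with HY5 and the dashed median highest at day 30 where PIF5 is lowest.

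HY5, the bZIP factor that promotes light-regulated gene expression, ran opposite to GLK1, GLK2, PIF1 and PIF5 in old leaves. Young libraries ranged from 0.756 through 1.89 to 2.47 FPKM, mature libraries from 2.58 through 3.37 to 4.14 FPKM and old libraries from 5.13 through 10.7 to 23.9 FPKM. The 3 stages did not overlap; 32.5% of all genes tested lay wholly higher in mature than young libraries and 32.7% wholly higher in old than mature ones. HY5 rose by 0.63 ± 0.129 (relative 0.31, adjusted p = 0.000345) and then by 1.43 ± 0.129 (relative 1.16, adjusted p = 1.39e-08), with 1.02 left of the second rise without day 30 (adjusted p = 5.82e-06).

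In FPKM, most of the HY5 increase came at the last 2 steps. Its level was 6.12 and 5.13 FPKM in sets 1 and 2 at day 26, 12.2 and 9.13 at day 28 and 23.9 and 15.7 at day 30. At each step the later pair lay above the earlier one. The step to day 28 (0.81 ± 0.224, adjusted p = 0.0308) made HY5 the only one of the 9 genes called there, where 8.38% of all genes were called, 4.99% upwards. That call was lost when any 1 of its 4 libraries was left out (adjusted p = 0.0623 to 0.271). The step to day 30 was 0.82 ± 0.224 (adjusted p = 0.0101), and did not pass without the day 28 library of set 2 (adjusted p = 0.105) or the day 30 library of set 1 (adjusted p = 0.166).

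HYH, the close homologue of HY5, did not pass from young to mature leaves or from mature to old. It was at 3.75 ± 1.23, 4.68 ± 0.727 and 5.66 ± 1.33 FPKM in young, mature and old leaves (SD, n = 6). Between young and old leaves HYH passed as higher, where 60% of all genes tested were higher. Of 8 HY5 partners and greening factors, HYH included, 7 rose and 0 fell from young to mature leaves (median 0.66), CGA1, a GATA factor of chloroplast development, from 1.15 ± 0.494 to 5.37 ± 1.11 FPKM (1.58 ± 0.158). From mature to old leaves 2 rose and 4 fell (median -0.39), with BBX25 (-1.74 ± 0.202) and the GATA factor gene GNC (-1.20 ± 0.192) as the larger falls and BBX20 (0.55 ± 0.116) and BBX21 (0.24 ± 0.0819), of the B-box family, as the rises. Of 6 tested known HY5 targets, 2 rose, 1 fell and 3 did not pass from mature to old leaves. CHS, the chalcone synthase gene of flavonoid synthesis, rose from 8.91 ± 3.55 to 114 ± 110 FPKM (3.004 ± 0.574), ELIP1, an early light-induced protein gene, rose by 1.497 ± 0.367, and FLS1, a flavonol synthase gene, fell by -0.89 ± 0.106. From young to mature leaves 2 of the 6 rose and 3 fell, CHS by -2.33 ± 0.574 and FLS1 by -1.15 ± 0.106.

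ABI5, an abscisic acid response factor best known from seeds, was the weakest of the 10 genes. It was listed at 0 in 5 of 28 libraries, all of them between day 4 and day 12, and its highest value was 0.965 FPKM. Its smallest value above 0 was 0.0214 FPKM and the values up to day 16 were 0 or 1.00 to 2.11 times that. From there it was at 0.147 and 0.0712 FPKM at day 22 in sets 1 and 2, 0.22 and 0.191 at day 24, 0.554 and 0.312 at day 26, 0.965 and 0.898 at day 28, and 0.511 and 0.691 at day 30. Every old library was above every mature one, as in 32.7% of the genes tested, to which ABI5 does not belong. Its mature libraries ranged from 0.0214 through 0.0428 to 0.0929 FPKM.

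An exact two-sided permutation test within sets, added after the level of ABI5 was seen, gave p = 0.005 for the difference of 0.61 FPKM between old and mature leaves. This is the smallest p that 400 arrangements allow, and the adjusted p over the 3 ABI5 comparisons was 0.0075. Mature and young leaves differed by 0.0333 FPKM (exact permutation p = 0.03), where no value was over 4.34 times the smallest above 0. In a limma fit with no filter on low values, 28173 genes, the change from mature to old leaves was 0.65 ± 0.0352 (adjusted p = 3.01e-10) and that from young to mature leaves 0.05 ± 0.0352 (adjusted p = 0.339). HY5 was still rising at day 30, whereas ABI5 was lower at day 30 than day 28 in both sets.

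Most tested genes that act beside ABI5 rose in each comparison. Of 11 tested genes out of 14 in this list, 9 rose and 0 fell from young to mature leaves (median 0.88, all genes 0.32, 51.6% of them higher), and 10 rose and 0 fell from mature to old (median 0.78, all genes 0.26, 48.3% of them higher). AFP3, of the family of ABI5-binding proteins, rose from 1.496 ± 0.645 to 7.87 ± 2.80 FPKM (SD, n = 6; 1.82 ± 0.172) and then to 32.1 ± 15.7 FPKM (1.83 ± 0.172), and ABF1, another abscisic acid responsive bZIP factor, rose by 1.81 ± 0.13 in mature leaves. TMAC2, of the same family as AFP3, rose from 0.698 ± 0.114 to 14.5 ± 15.4 FPKM in old leaves (2.53 ± 0.102). The seed regulators ABI3, ABI4 and DPBF2 of this list were not tested, with stage means of at most 0.00836 FPKM. Among the seed genes known to be activated by ABI5, EM6 was listed at 0 in all young and mature libraries and at a mean of 5.34 ± 7.18 FPKM in old ones (2.05 ± 0.258), RAB18 did not pass in either comparison, and EM1 was not tested. The day 30 library of set 2 carried much of this: EM6 was at 19.5 FPKM there and at 0.379 to 4.77 FPKM in the other 5 old libraries, and the summed seed storage markers were at 9.54 FPKM there and at 0 to 0.193 FPKM in the others. Without that library EM6 averaged 2.50 ± 1.98 FPKM (SD, n = 5) and its change was 1.77 (limma, adjusted p = 2.59e-06).

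Among 7 senescence genes placed downstream of PIF4, PIF5 and ABI5 in earlier work, 6 rose and 0 fell in each comparison. The medians were 1.38 and 2.77 (all genes 0.32 and 0.26, with 51.6% and 48.3% of them higher). ORE1, a NAC factor that drives senescence, rose from 0.21 ± 0.20 to 13.9 ± 7.64 and then to 103 ± 45.3 FPKM (SD, n = 6). SGR1, which starts chlorophyll breakdown, rose from 16.5 ± 3.31 to 342 ± 252 FPKM (3.90 ± 0.116) in old leaves, and the protease gene SAG12 from 0.739 ± 1.33 to 1531 ± 1139 FPKM (9.44 ± 0.247). SEN1 was the gene that did not pass from mature to old leaves (-0.27 ± 0.316). In the same comparison PIF4 and PIF5 fell.

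Over the last step, from day 28 to day 30, 7 of the 9 genes fell and HY5 rose, while 21.8% of all genes fell and 9.01% rose, 30.8% in all. The largest falls on the log2 scale were those of GLK1 (-1.79 ± 0.265, adjusted p = 7.66e-05), PIF5 (-1.75 ± 0.268, adjusted p = 0.000111) and PIF1 (-1.70 ± 0.226, adjusted p = 2.83e-05). GLK1 went from 106 and 92.3 FPKM in sets 1 and 2 to 24.3 and 31.8, PIF5 from 52.1 and 64.1 to 12.8 and 21.2, and PIF1 from 8.58 and 7.27 to 1.44 and 2.07. For each of the 3 genes both day 30 libraries were below both day 28 libraries. GLK2 fell by -1.62 ± 0.34 (adjusted p = 0.00163), PIF4 by -1.0 ± 0.266 (adjusted p = 0.00849), PHYA by -0.70 ± 0.242 (adjusted p = 0.0352) and PHYB by -0.64 ± 0.183 (adjusted p = 0.0131).

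PIF3 went from 5.08 and 9.92 to 4.204 and 6.96 FPKM at this step and did not pass (-0.34 ± 0.259, adjusted p = 0.346). As each step sets 2 libraries against 2, single libraries weigh heavily: without the day 28 library of set 2, 4 of the 9 genes were called, and without the day 30 library of set 1, 5. PIF1, PIF5, GLK1 and GLK2 kept their call at this step under all 38 alternatives run. PHYA lost it without the set term (adjusted p = 0.110) and without any 1 of the 4 libraries (adjusted p = 0.0538 to 0.238). PHYB lost it after quantile normalization and median scaling (adjusted p = 0.0732 and 0.118) and without the day 28 library of set 2 or the day 30 library of set 1 (adjusted p = 0.154 and 0.1). PIF4 lost it without either set 2 library (adjusted p = 0.0661 and 0.067). At the other 10 steps, between day 6 and day 26, 0 of the 9 genes passed in limma. Few of all genes did: 0.011% at the step to day 8, 0.137% to day 10, 0.011% to day 12, 0.00548% to day 14, 0% to day 16, 0.0713% to day 18, 0.0219% to day 20, 0.658% to day 22, 1.03% to day 24 and 0.285% to day 26.

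**Figure D3:**
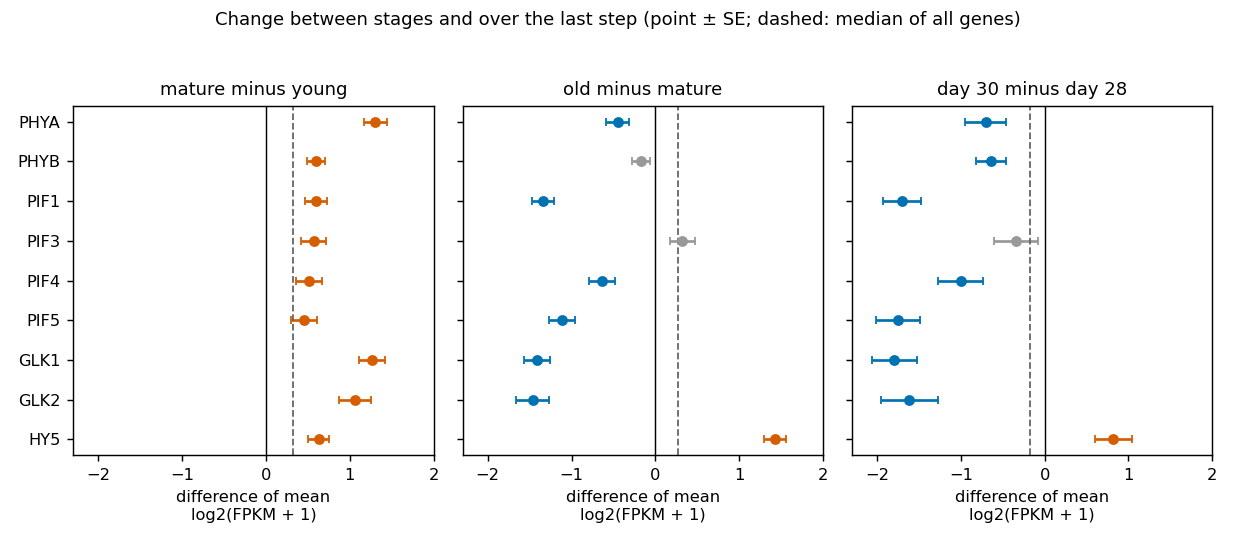
Difference of mean log2(FPKM + 1) ± SE (limma) of the 9 tested genes between stages and between day 28 and day 30, with the median of all genes tested as a dashed line; orange points are higher and blue points lower at an adjusted p under 0.05, grey points did not pass. All 9 lie right of 0 in the left panel, where PIF4 and PIF5 turn negative after median scaling, and HY5 alone is orange in the other panels.

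From young to old leaves the 9 genes ended on both sides of their starting level. PHYA (0.86 ± 0.14, not passing after quantile normalization or median scaling, adjusted p = 0.131 and 0.352), PHYB (0.42 ± 0.105, turning to -0.33 after quantile normalization or median scaling), PIF3 (0.89 ± 0.15) and HY5 (2.06 ± 0.129) were higher in old than young leaves, where 60% of all genes tested were higher and 85.5% were called. PIF1 (-0.75 ± 0.131) and PIF5 (-0.66 ± 0.155) were lower, where 25.5% of all genes were lower, and neither passed without day 30 (adjusted p = 0.681 and 0.985). Every old library was above every young one for PIF3 and HY5, as for 43.3% of all genes. PIF4 (-0.12 ± 0.154), GLK1 (-0.15 ± 0.153) and GLK2 (-0.40 ± 0.196) did not pass, and turned to 0.21, 0.55 and 0.19 without day 30, of which that of GLK1 passed (adjusted p = 0.00553). After quantile normalization all 3 passed as lower, at -0.77, -0.49 and -0.91 (adjusted p = 1.25e-07, 0.000598 and 1.61e-06). They passed as lower too without the day 4 library of set 1, at -0.35, -0.33 and -0.715 (adjusted p = 0.000707, 0.0104 and 2.82e-07), and after median scaling, after rescaling nuclear genes and without day 4. Relative to the median gene, PHYB, PIF4, GLK1 and GLK2 were at -0.17, -0.72, -0.74 and -1.0.

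Differences between related genes were followed within each library. On the log2(FPKM + 1) scale, a scaling that both genes share cancels only in part where a gene is near 1 FPKM. The PHYA minus PHYB difference of log2(FPKM + 1) was 0.80 ± 0.353 in young, 1.51 ± 0.119 in mature and 1.24 ± 0.168 in old libraries (SD, n = 6). PHYA thus gained on PHYB in mature leaves (0.71, exact permutation p = 0.005, adjusted p = 0.025 over 10 tests) and lost part of that gain in old ones (-0.28, exact permutation p = 0.01, adjusted p = 0.0333). The loss did not pass after quantile normalization (-0.31, exact permutation, adjusted p = 0.06) or with a pseudocount of 0.1 (-0.28, exact permutation, adjusted p = 0.05).

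PIF1 and PIF3 exchanged order. The PIF1 to PIF3 ratio of FPKM was 4.77 and 2.81 at day 4 in sets 1 and 2. It was 2.21 and 1.65 at day 26, 1.69 and 0.733 at day 28, and 0.344 and 0.298 at day 30. Their log2 difference did not move detectably from young to mature leaves (0.02, exact permutation p = 0.765, negative with a pseudocount of 0.1, after quantile normalization and without day 4) and fell from 1.58 ± 0.214 to -0.09 ± 1.01 in old ones (SD, n = 6; -1.66, exact permutation p = 0.005, adjusted p = 0.025), all two-sided within sets, 0.005 being the smallest p possible.

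For the remaining pairs no change of the difference passed. PIF4 stayed at 0.472 to 0.815 of the FPKM of PIF5 up to day 28 and reached 1.82 and 0.883 at day 30, and the change of their difference from mature to old leaves was 0.48 (exact permutation p = 0.07, adjusted p = 0.117). GLK1 to GLK2 ratios lay between 0.994 and 2.69, with changes of 0.21 and 0.05 (exact permutation p = 0.375 and 0.65); without day 4 the first was 0.46 (exact permutation, adjusted p = 0.025). HY5 was at 0.332 to 1.13 of the FPKM of HYH up to day 26, at 2.25 and 1.41 at day 28 and at 5.14 and 4.30 at day 30. The change of that difference from mature to old leaves was 1.22 (exact permutation p = 0.035, adjusted p = 0.0875).

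**Figure D4:**
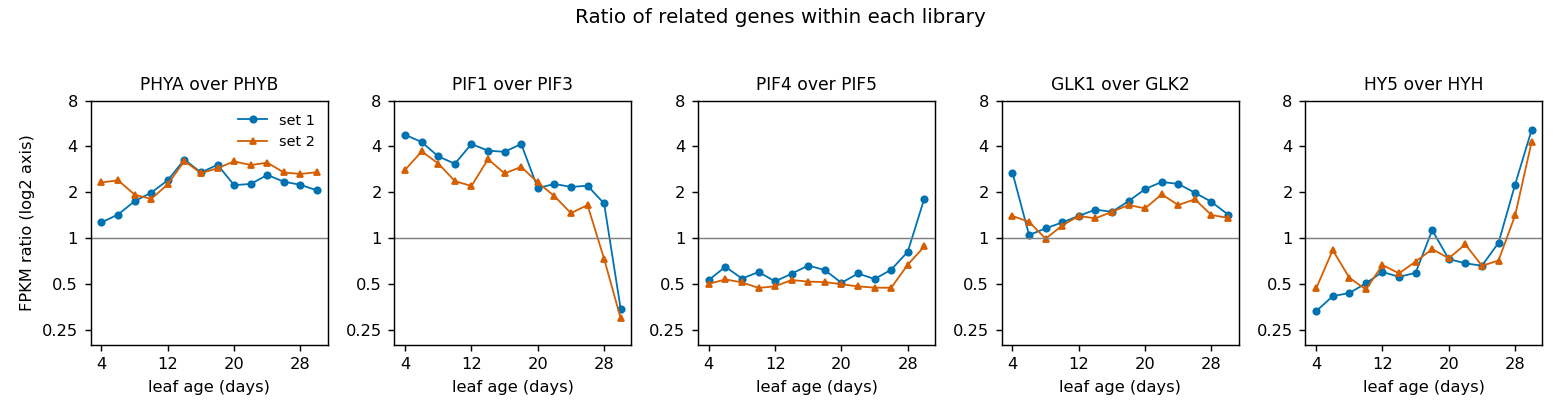
Ratio of the FPKM of related genes within each library (log2-scaled axis) against leaf age in days, with circles for set 1 and triangles for set 2; the grey line marks equal levels. PIF1 over PIF3 drops from 4.77 and 2.81 at day 4 to 0.344 and 0.298 at day 30, and HY5 over HYH climbs to 5.14 and 4.30.

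Over the 14 ages, PIF1 and PIF5 had the most alike profiles among the 9 tested genes, with Pearson's r of log2(FPKM + 1) of 0.992 in set 1 and 0.981 in set 2. GLK1 and GLK2 followed each other at 0.921 and 0.933, PHYA and PHYB at 0.909 and 0.930, and PIF4 with PIF5 at 0.859 and 0.944. PIF1 and PIF3 were at 0.391 and -0.187. These are descriptions over ages that share libraries and their depth. HY5 was negatively related to PIF1 (-0.552 and -0.725), PIF5 (-0.508 and -0.734) and GLK2 (-0.237 and -0.697). The same held for GLK1 (-0.233 and -0.52) and PIF4 (-0.0988 and -0.59). HY5 was positively related to PIF3 (0.453 and 0.743), PHYA (0.232 and 0.299) and PHYB (0.0943 and 0.175).

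Judged by the lower of the r values of both sets, the tested genes most like PHYA were AT3G45770, KING1 and COL5 (0.975 to 0.978), and those most like PHYB were HB16, AT4G00752 and AT4G26480 (0.947 to 0.95). For PIF1 they were AT1G75800, AMI1 and PIF5 (0.981 to 0.987), for PIF5 they were PIF1, IAA9 and PHOT1 (0.974 to 0.981), for PIF3 AT1G71080, MSBP1 and the shade-induced homeobox gene HB-2 (0.923 to 0.935), and for PIF4 AT1G11440, RAD23C and LOX6 (0.923 to 0.940). GLK1 was most like ASG5, CYP706A5 and AT3G09410 (0.967 to 0.976), and GLK2 most like AT4G26860, CVL1 and CYP72A11 (0.974 to 0.981). HY5 was most like AT5G54870, AL2 and AT1G03350 (0.983 to 0.987). The genes differed in how common their profile was: 1617 tested genes exceeded 0.9 with HY5, 246 with PHYA, 224 with PIF1 and 207 with PIF5. The same count was 189 with GLK2, 186 with GLK1, 75 with PHYB, 53 with PIF3 and 8 with PIF4.

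Clock genes were measured beside these results because several PIF genes and HY5 partners cycle over the day, and the labels give no hour of harvest. CCA1 was at 26.7 ± 9.76, 56.05 ± 7.19 and 35.1 ± 7.93 FPKM in young, mature and old leaves (SD, n = 6), and LHY at 11.8 ± 4.19, 41.6 ± 10.6 and 46.6 ± 11.5 FPKM. Of 9 tested clock genes 8 rose and 1 fell from young to mature leaves, and 5 rose and 2 fell from mature to old. The medians were 0.835 and 0.592 (all genes 0.32 and 0.26). Of all genes tested 51.6% rose and 16.7% fell in the first comparison, and 48.3% and 27.1% in the second. CCA1 (1.16 ± 0.169, then -0.68 ± 0.169) moved in the direction of PHYA, PIF1, PIF4, PIF5, GLK1 and GLK2 in both comparisons. Most clock genes did not: 5 of the 9 rose from mature to old leaves, and the mean of LHY did not fall. The part of CCA1 or of the other clock genes in the changes of these regulators was not tested.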

How the data were processed

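Total RNA of 28 wild-type leaf libraries was deposited by the authors as FPKM per transcript model, a level scaled to model length and library size, in a table for each set. Per the submitters' processing notes, TopHat 1.4.0 and Cufflinks were run with TAIR10; their settings are not given in the sources used here. Data of 14 small RNA libraries were not used. FPKM of models were summed per gene. The 18239 genes that reached 1 FPKM in 2 or more libraries were fitted with limma 3.58.1 (trend) in R 4.3.3 on log2(FPKM + 1), with a term per leaf age and a block for the set, which keeps contrasts within a table; 13 residual degrees of freedom remained. Each comparison's p-values had the Benjamini-Hochberg adjustment across these genes, at a threshold of 0.05. Stages are means of 3 ages. Differences between pairs of genes were tested by exact two-sided permutation within sets (400 arrangements, smallest p = 0.005), adjusted over 10 tests. This exchanges libraries of different ages as if they were replicates of a stage. Read depth cannot be read from FPKM, and no counting error is given.

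The members and the 17 gene lists (124 genes, 110 tested) were chosen with earlier results of these data known, and lists are described by counts and medians without a test. Beside the 10 genes, at most the 2 largest rises and 2 largest falls of a list and comparison that passed are named, with any gene of a list with 5 or fewer tested; CCA1, LHY, SAG12 and HYH as references; COP1, UVR8, PIL1, the untested seed genes and SEN1, added after their values were seen; and for each tested gene the 3 with the most alike profile. Gene names come from RefSeq's table, which matched 32835 identifiers; it is built on TAIR10.1, so no coordinates are given, and no sequence is printed. The fit was tested on simulated data of 18239 genes, where the comparison of old and mature leaves recovered 200 of 200 changed genes with 6 false calls. The simulated noise had the same size for every gene and no set effect. Only large changes in genes above a low level were simulated, and most genes had no change. The simulation therefore does not bear on smaller changes or on genes of low level. Alternatives were a pseudocount of 0.1, no filter, a filter of 14 libraries, quantile normalization, nuclear genes rescaled to a common sum, median scaling, no set block, no trend, narrower stages (young days 6 and 8, old days 26 and 28), leaving out day 4 or day 30, and leaving out each library.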

Additional observations from a re-analysis of the deposited data

Results flagged for a closer look

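In 3 of 30 groups of 6 libraries a single library lay far from the others of its stage. For independent values of 1 distribution, chance marks about 1 group in 20. That rate is no yardstick here, as each group mixes 3 ages and the groups share libraries. PHYA was at 10.4 FPKM in the day 4 library of set 1, with the next young library at 23.1. PIF5 was at 32.2 FPKM in the same library, with the next at 71.1. This library also had the lowest summed FPKM of all 28, 331479, and the fewest genes at 1 FPKM or above, 13359. PHYA was at 67.5 FPKM in the day 18 library of set 2, with the next mature library at 57.2.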

How the results depend on the processing

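Across 39 results and 1510 alternative values, 1397 kept direction and side of the threshold, 75 lost the call, 26 gained it and 12 changed sign; the cause was not tested. From young to mature leaves, median scaling left 4 of the 9 genes called, beside 5123 of all genes higher and 6759 lower. It turned PIF4 to -0.02 and PIF5 to -0.0849. From mature to old leaves PHYB turned to 0.0957 with narrower stages or without day 30. From young to old leaves PHYB turned to -0.326 after quantile normalization and -0.328 after median scaling, PIF4 to 0.208 if day 30 was left out, GLK1 to 0.283 with narrower stages and 0.551 if day 30 was left out, and GLK2 to 0.189 if day 30 was left out. Over the fits that each lacked 1 library, PIF4 ranged from -0.347 to 0.10 and GLK1 from -0.333 to 0.0432, both positive when set 2 had no day 4 library. Of the pair differences, PHYA minus PHYB from mature to old leaves was -0.277 with a pseudocount of 0.1 and -0.306 after quantile normalization, neither passing (exact permutation, adjusted p = 0.05 and 0.06). PIF1 minus PIF3 from young to mature leaves was -0.0832 with a pseudocount of 0.1, -0.0844 after quantile normalization and -0.0146 without day 4. PIF4 minus PIF5 was -0.0393 after quantile normalization, and GLK1 minus GLK2 was 0.463 without day 4 and passed (exact permutation, adjusted p = 0.025).

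Leaving out each library in turn gave 9 to 9 called genes of the 9 from young to mature leaves, 7 to 8 from mature to old, 6 to 9 from young to old, 4 to 8 from day 28 to day 30 and 9 to 9 in the F test. Over all genes the counts were 11542 to 13715, 13075 to 14892, 15147 to 16148 and 2845 to 8294 in the first 4 comparisons. The last count, 5626 with all libraries, became 3360 or 3499 when day 28 was reduced to set 2 or set 1, and 2845 when day 30 was reduced to set 2. A fit that leaves 1 library at an age assumes that it varies like the others.

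Set numbers were checked for pairing: residuals of libraries with the same set number correlated above 0.1 in 66 of 91 pairs of ages (median 0.226, from -0.146 to 0.650), so the numbers did not pair all ages. Without the replicate block, 9, 7, 6 and 7 of the 9 genes were called in the same 4 comparisons, against 9, 7, 6 and 8 with it, and 11989, 13432, 15427 and 4917 of all genes. The alternatives for single steps between ages, the ABI5 test and the EM6 value without 1 library were chosen after seeing the data.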
